A study of Mus musculus with 16 samples.

Results

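The DEAD box and DEAH box helicases are enzymes that use ATP to bind, unwind or remodel RNA, and the abundance of their own transcripts was measured in RNA that copurified with the transcription factor Sox2. The genes were chosen by symbol alone, as protein-coding genes whose mouse symbol is Ddx or Dhx followed by a digit. This gave 53 of 53379 genes, of which 37 are Ddx and 16 are Dhx genes, and all 53 passed the filter on low counts. Sox2 RNA immunoprecipitation (IP) and input libraries were made from male mouse embryonic stem cells (mESC) grown on gelatin in medium with serum, LIF, PD0325901 and CHIR99021, inhibitors and a cytokine that hold the cells in a pluripotent state. RNA and protein were crosslinked either with formaldehyde (fRIP), which also joins proteins to each other, or with UV light (UV-RIP), which joins RNA to protein at direct contacts. Each crosslinker has 4 IP libraries and 4 input libraries, numbered 3 to 6, and the input with the same number comes from the same lysate. The labels name neither the line nor any allele, transgene or further treatment, so the groups differ in crosslinker and in IP against input. No IP with a control antibody was analysed here, and enrichment is relative to input only. The 2 crosslinkers were used on different plates of cells, so crosslinker and plate cannot be told apart.

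Helicases of these families accompany RNA through most of its life. DEAD box proteins separate short duplexes locally during splicing, ribosome assembly, export, translation and decay, and DEAH box proteins move along a strand, as when the spliceosome is remodelled and taken apart. Both bind ATP in a fold that holds a short acidic sequence, motif II, which gives the families their names and helps to split ATP. The values below concern the transcripts of these genes and not the proteins.

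Motif II was read from the longest coding transcript of each gene in GENCODE vM21 on GRCm38 by searching its translation for the letters DE, any residue, and D or H, after a pair of mainly hydrophobic residues. A match was found in 52 of 53 genes, all but Dhx32. The letters DEAD stood in 28 Ddx genes and DEAH in 8 Dhx genes. The other Ddx genes read DEVD in 3, DECD in 2, and DESD, DEAH, DECH and DEVH in 1 each, and the other Dhx genes read DEVH in 4, DEIH in 2 and DECH in 1. The 30 coding bases around the motif are given for the genes on which the results turn and for 2 neighbouring copies that share sequence, with the 12 bases of motif II in capitals.
Ddx3x: ctggtgttaGATGAAGCTGACcggatgtta
Ddx3y: ttagtattgGATGAAGCTGATaggatgctg
Ddx5: cttgtccttGATGAAGCTGATaggatgctt
Ddx17: cttgtgttgGATGAGGCTGACcggatgctt
Ddx28: atagtgctaGATGAAGTAGACacactgcta
Ddx10: ttagttcttGATGAGGCAGATagaatcttg
Ddx31: ctgattgtgGATGAAGCAGACaggatcttg
Dhx36: attgtacttGATGAAATTCATgaaaggaat
Dhx9: gttattgtgGATGAAATTCATgaaagagat
Dhx35: atcatgctgGATGAAGCCCACgagaggacc
Ddx19a: tttgttctgGACGAGGCTGATgtgatgata
Ddx19b: tttgttctgGACGAGGCTGATgtgatgata
The X-linked Ddx3x (plus strand, chrX:13289399-13289428) and its Y-linked partner Ddx3y (minus strand, chrY:1265940-1265969) differed at 8 of these 30 bases, and Ddx5 (minus strand, chr11:106785184-106785213) and its paralog Ddx17 at 6. The coding windows of Ddx19a and Ddx19b were identical. Dhx9 (minus strand, chr1:153468880-153468909) and Dhx36 (minus strand, chr3:62493845-62493874) were the pair that read DEIH, and Dhx35 (plus strand, chr2:158818266-158818295) read DEAH. The windows of Ddx10 and Ddx31 each cross an exon junction.

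The authors deposited unique molecular identifiers (UMIs) counted per gene body, introns included, so each count is an original RNA fragment and unspliced RNA contributes. The totals were 17728081 to 21211537 UMIs in the fRIP IP, 13627606 to 15381686 in its input, 14218784 to 17281596 in the UV-RIP IP and 12456298 to 13828610 in its input. The helicase genes together took 0.468 to 0.514% of the UMIs in the fRIP IP and 0.621 to 0.718% in its input, and 0.414 to 0.447% in the UV-RIP IP and 0.488 to 0.504% in its input, so the IP and input ranges did not overlap under either crosslinker. The fRIP input of replicate 4 had the highest of the 4 fRIP input values in 30 of 53 helicase genes, a count that was not made over all genes. A single gene, Gm26917, took 18.35 to 22.34% of UMIs in the UV-RIP IP against 12.03 to 12.29% in its input, and 5.44 to 12.43% against 5.46 to 8.49% in fRIP, which lowers every other gene's share where it is high. Of 12 pluripotent stem cell markers, 11 were detected with a mean of 10 or more UMIs and summed to 3705 to 4044 CPM (UMIs scaled to a common library total, as usual for this unit) in the fRIP IP, 4025 to 4761 in its input, 2134 to 2258 in the UV-RIP IP and 2348 to 2523 in its input, while Sox2, whose gene lies within the transcription unit Sox2ot, was listed at 0 in every library. Summed levels of 8 primitive endoderm markers were 141 to 146 CPM in the fRIP IP against 94.2 to 121 in its input and 103 to 113 against 76.7 to 87.4 in UV-RIP. Most of this sum was Lama1 alone, with a mean of 115 CPM over all IP and 86.0 over all input libraries, while of the other 7 Gata4 and Gata6 had a higher mean in the IP and Sox17, Sox7, Pdgfra, Foxa2 and Dab2 a lower one. The 7 trophoblast markers reached at most 18.9 CPM, 8 fibroblast markers 3.30 CPM and 7 neural progenitor markers 21.5 CPM. The part of these markers in the helicase results was not tested.

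Levels varied widely among the helicase genes. Per kilobase of gene body in the fRIP input, Ddx5 was highest at 57.2 CPM per kb, followed by Ddx3x at 37.0, Ddx17 at 24.7, Ddx39b at 21.9 and Dhx9 at 19.9. The same 5 genes led in the UV-RIP input, where Ddx5 had 47.9, Ddx17 19.8, Ddx3x 19.5 and Dhx9 15.2 CPM per kb, with Ddx39b between these last genes. These encode abundant regulators of transcription, splicing, export and translation. Lowest were Ddx60, a cofactor of antiviral RNA sensing, at 0.0048 and 0.0219 CPM per kb in the fRIP and UV-RIP inputs, and Ddx25, a testis export helicase, at 0.135 and 0.0843 CPM per kb. The mean over all 16 libraries reached 100 UMIs in 50 of 53 genes and was lowest in Ddx60 with 19.9, Ddx25 with 30.9 and the antiviral regulator Dhx58 with 55.2, so these 3 carry the largest counting error.

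In fRIP, helicase transcripts were mostly lower in the Sox2 IP than in input. Enriched means that edgeR's quasi-likelihood test gave an adjusted p below 0.05 and the IP exceeded input by more than 1.5-fold, and depleted is the mirror of this. Of the 53 helicase genes, 13 were depleted (24.5%) and 1, Ddx31, was enriched (1.89%). Among all 22936 genes tested, 10.7% were depleted and 8.8% enriched, and among the 9792 protein-coding genes whose mean reached 100 UMIs 15.7% were depleted and 10.9% enriched. At the adjusted p alone, 35 helicase genes (66%) were lower in the IP against 21.9% of all genes tested, and 3 were higher against 17.6%. Among the well-counted protein-coding genes 39.3% were lower and 28.1% higher. The median log2 fold change of IP over input was -0.33 for the helicase genes, with quartiles of -0.56 and -0.11, against -0.03 for all genes tested and -0.08 for the well-counted protein-coding genes. Every IP library lay below every input library in 33 helicase genes (19.2% of all genes) and every IP library above every input library in 2, Ddx31 and Dhx35 (15.3% of all genes). Ddx genes had a lower median than Dhx genes, -0.43 against -0.06, and 10 of 37 Ddx genes and 3 of 16 Dhx genes were depleted. Without replicate 4, 11 genes were depleted and none enriched.

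**Figure D1:**
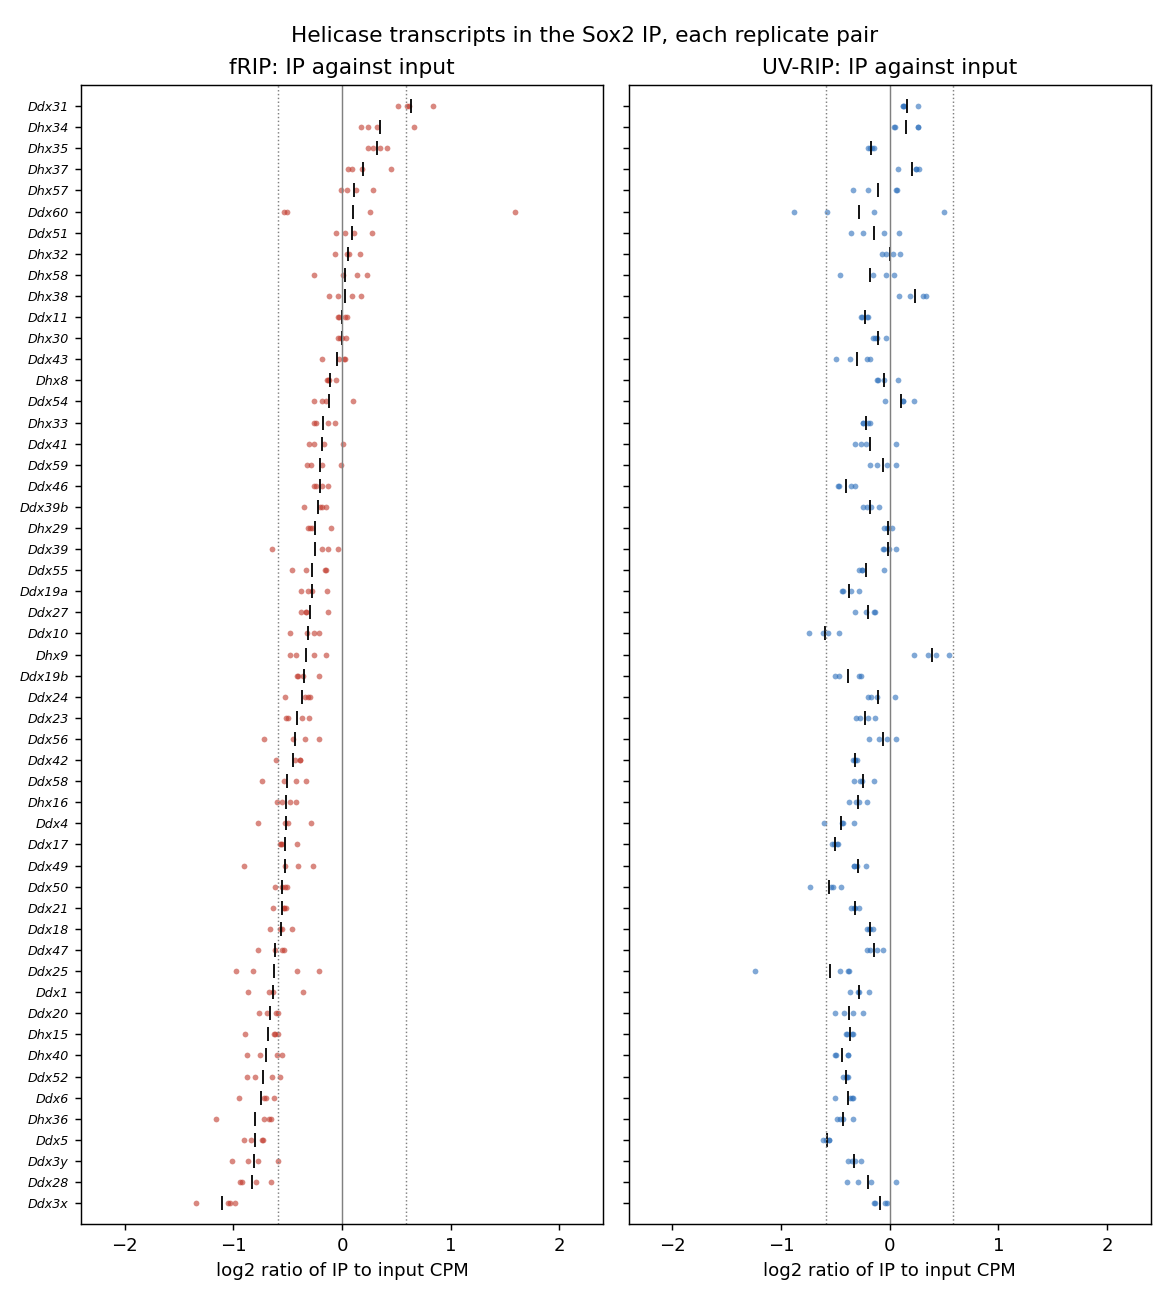
Log2 ratio of IP to input CPM (horizontal axis) for each of the 53 helicase genes (rows, ordered by the fRIP value), with fRIP on the left and UV-RIP on the right. Points are the 4 replicate pairs, black bars the fitted log2 fold change, and dotted lines mark a 1.5-fold change; 13 genes were depleted in fRIP and Ddx3x lies at the bottom at -1.10.

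Genes of mRNA export, translation and decay included Ddx3x, the helicase gene with the lowest fold change in fRIP. Of 10 such genes, 5 were depleted in fRIP (10.7% of all genes tested) and 9 were lower at the adjusted p (21.9%). Among the well-counted protein-coding genes 15.7% were depleted and 39.3% lower. The median log2 fold change of these 10 genes was -0.49. Ddx3x, which encodes a helicase that promotes translation of mRNAs with structured leaders, had 445, 609, 439 and 442 CPM in the fRIP inputs of replicates 3 to 6 and 225, 240, 212 and 216 CPM in the IP libraries. The IP values lay in a narrow band below all inputs, and the input of replicate 4 was the highest. It was lower in the IP by a log2 fold change of -1.10 (standard error 0.08, edgeR adjusted p = 1.58e-10), or 2.15-fold lower in the IP, and -1.02 without replicate 4. Ddx3y, its Y-linked partner, had 36.2, 47.9, 32.6 and 36.4 CPM in the fRIP inputs and 24.1, 23.8, 17.9 and 21.2 in the IP, and fell by 0.81 on the log2 scale (standard error 0.09, edgeR adjusted p = 1.12e-07). Dhx36, which resolves G-quadruplexes, had 131, 133, 112 and 126 CPM in the inputs and 79.3, 83.4, 49.9 and 80.1 in the IP. Its groups did not overlap, replicate 5 was low in the IP, and the log2 fold change was -0.80 (standard error 0.09, edgeR adjusted p = 7.79e-08). Ddx6, a repressor of translation and activator of decapping, fell from 324 ± 51.8 to 191 ± 13.6 CPM (SD, n = 4 each), a log2 fold change of -0.75. Ddx25 was also called, at -0.62, but from 2.96 ± 0.709 CPM in the input against 1.91 ± 0.214 in the IP (SD, n = 4 each), groups that overlapped, and its call was lost without replicate 3 (-0.50) or replicate 4 (-0.56) and with TMM factors (-0.58). DESeq2 did not call it either, with an adjusted p of 0.105 with total UMIs and 0.135 with median-of-ratios. The nuclear pore helicases Ddx19a and Ddx19b had log2 fold changes of -0.28 and -0.35, and the export factor Ddx39 and the initiation factor Dhx29 -0.25 each, lower at the adjusted p but not past 1.5-fold. Dhx34, a factor of nonsense-mediated decay, went the other way, with 20.7, 21.9, 26.4 and 23.6 CPM in the IP and 17.5, 13.8, 21.1 and 20.9 in the input. Its ranges overlapped, the IP was higher in all 4 pairs, and the log2 fold change of 0.35 (standard error 0.10, edgeR adjusted p = 5.61e-03) was below the 1.5-fold threshold.

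All 5 genes of transcription and RNA processing were lower in the fRIP IP at the adjusted p (21.9% of all genes tested), and 3 were depleted (10.7%). Among the well-counted protein-coding genes 39.3% were lower and 15.7% depleted. Ddx5, a cofactor of transcription and of splicing, had 493, 560, 478 and 491 CPM in the fRIP inputs and 296, 313, 255 and 295 in the IP. Every IP value was far below every input value, and its log2 fold change was -0.80 (standard error 0.07, edgeR adjusted p = 5.12e-09). Its paralog Ddx17 fell by 0.53, short of 1.5-fold. Ddx20, of the complex that assembles spliceosomal particles, was depleted with a log2 fold change of -0.66, a call lost with a trend on gene length removed (-0.57), and Ddx1, of the tRNA ligase complex, with -0.63, though Ddx1 lost its call without replicate 4 (-0.56). Dhx9, which unwinds double-stranded RNA and tethers transcription cofactors, had the largest mean count of all helicase genes, 8768 UMIs per library. It had 594, 764, 591 and 589 CPM in the fRIP inputs and 536, 569, 423 and 492 in the IP, and fell by 0.33 on the log2 scale (standard error 0.08, edgeR adjusted p = 9.05e-04).

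Of 10 splicing helicase genes in fRIP, 1 was depleted, near the share of all genes tested (10.7%). At the adjusted p 6 were lower (21.9% of all genes tested) and 1 higher (17.6%). Among the well-counted protein-coding genes 39.3% were lower and 28.1% higher. The median log2 fold change of the splicing genes was -0.21. The depleted gene was Dhx15, which takes the spliceosome apart, at 263 ± 18.8 CPM in the input and 165 ± 24.0 in the IP (SD, n = 4 each), a log2 fold change of -0.68. Ddx39b, which recruits the branch-point recognition particle and had the most UMIs of this group, had -0.22. Dhx35, a splicing-associated helicase, was the gene that was higher, with 93.4, 85.7, 91.2 and 94.1 CPM in the fRIP inputs and 110, 114, 111 and 120 in the IP. The ranges did not overlap, and the log2 fold change was 0.32 (standard error 0.08, edgeR adjusted p = 1.29e-03), below the 1.5-fold threshold.

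Ribosome biogenesis is the largest role, with 16 genes, and it held both the enriched gene and members among the depleted. In fRIP 1 was enriched (8.8% of all genes tested), 2 were depleted (10.7%) and 11 were lower at the adjusted p (21.9%). The shares of this role, 6.25% enriched and 12.5% depleted, were near those of all genes tested. Among the well-counted protein-coding genes 39.3% were lower. The median log2 fold change of the 16 genes was -0.34. Ddx31, a nucleolar helicase of the large subunit pathway (ENSMUSG00000026806.15, plus strand, chr2:28840406-28905571), had 75.1, 64.8, 71.7 and 72.6 CPM in the fRIP inputs and 115, 115, 103 and 110 in the IP. Every IP library was above every input, by a log2 fold change of 0.64 (standard error 0.08, edgeR adjusted p = 5.43e-07), or 1.56-fold. This lies just inside the threshold of 0.585 on the log2 scale, and the call was lost without replicate 4 (0.57) and after removal of a trend on gene length (0.41). The depleted genes were Ddx52 and Ddx47, both of small subunit maturation, at -0.72 and -0.62. Ddx47 lost its call without replicate 5, with TMM factors and with a trend on gene length removed (-0.57 in each). Ddx21, which links RNA polymerase activity to ribosomal RNA processing and had the most UMIs of this group, fell by 0.55, and Dhx37, of the small subunit processome, had 0.19 (edgeR adjusted p = 0.0724).

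The remaining roles are small. Ddx28, of mitochondrial ribosome assembly and the shortest helicase gene at 2.262 kb, had 8.65, 12.6, 11.9 and 9.25 CPM in the fRIP inputs and 4.57, 6.57, 6.84 and 5.86 in the IP. Its groups did not overlap, and its log2 fold change was -0.83 (standard error 0.11, edgeR adjusted p = 2.06e-06). With a trend on gene length removed the value was -0.56 and the call was lost. Dhx30, of mitochondrial RNA granules, had 129 ± 6.43 CPM in the input and 129 ± 6.75 in the IP (SD, n = 4 each). None of the 3 antiviral genes was called, and only Ddx58, which encodes the sensor RIG-I, was lower at the adjusted p, by 0.51. Of the germ line genes, Ddx4, the Vasa homolog, was lower by 0.52 at the adjusted p and Ddx43 had -0.04. Among 5 genes of other roles Dhx40 was depleted at -0.70, while the DNA helicase Ddx11 had 0.00 and Dhx57 0.11.

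In UV-RIP the differences were smaller, and the median lay close to that of all genes tested. None of the helicase genes was enriched (0.68% of all genes tested were) and 1, Ddx10, was depleted (5.53% of all genes tested). At the adjusted p alone 4 were higher against 6.6% of all genes and 34 (64.2%) were lower against 29% of all genes. Among the well-counted protein-coding genes, the nearer reference since 50 of the 53 are well counted, 12.8% were higher and 53.9% lower. Every IP library lay below every input library in 33 (25% of all genes) and above every input library in 3, Dhx9, Ddx31 and Dhx38 (4.93% of all genes). DESeq2 with total UMIs also called none enriched. The median log2 fold change was -0.22 for the helicase genes and -0.17 for all genes tested, and likewise -0.17 for the well-counted protein-coding genes. These directions depend on scaling. TMM factors moved the median of all genes to 0.005 and that of the helicase genes to -0.04, and turned the sign of 13 helicase genes, none of them called. The spread between UV-RIP libraries was so uniform that edgeR's default fit treated it as known, which makes the adjusted p-values small, and the adjusted-deviance fit of edgeR left every call of a helicase gene within a crosslinker as it was.

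Ddx10, a ribosome biogenesis helicase and the longest helicase gene at 149 kb (minus strand, chr9:53098635-53248053), had 133, 145, 126 and 134 CPM in the UV-RIP inputs and 87.1, 86.9, 91.3 and 90.3 in the IP. Its UV-RIP log2 fold change reached -0.60 (standard error 0.04, edgeR adjusted p = 2e-41, and 3.74e-08 by the adjusted-deviance fit), at the edge of the 1.5-fold threshold. The call was lost with TMM factors (-0.41) and without replicate 4 (-0.55), while the groups lay apart in every library. Next below were Ddx5 at -0.58 and the nucleolar Ddx50 at -0.55, just short of the threshold. Ddx5 had 436, 421, 411 and 423 CPM in the UV-RIP inputs and 297, 280, 269 and 287 in the IP, and both genes were also lower under TMM, by 0.40 and 0.37. The fRIP value of Ddx50 was also -0.55, and the difference of 0.01 between crosslinkers (standard error 0.09) did not pass the test.

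By role in UV-RIP, medians were lowest for the germ line genes and for transcription and RNA processing, near -0.37 in both, and highest at -0.11 for the genes of other roles. All of these values shift with the scaling described above, and 53.9% of the well-counted protein-coding genes were lower at the adjusted p. Of 10 genes of mRNA export, translation and decay, 6 were lower at the adjusted p and none was higher, with Dhx36 at -0.43, Ddx6 at -0.39 and Ddx3y at -0.33, the last of which became 0.01 with a transcript GC trend removed. Of 10 splicing genes, 8 were lower and 1 was higher, and Ddx46, of the branch-point step, had -0.41 against -0.21 in fRIP, a difference that did not pass the test (edgeR adjusted p = 0.0622). Of 16 ribosome biogenesis genes, 10 were lower and 2 higher. Ddx17 fell by 0.50, much as in fRIP, and the germ line genes Ddx4 and Ddx43 fell by 0.45 and 0.30.

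Dhx9 was the helicase gene with the highest ratio in UV-RIP. It had 484, 474, 491 and 485 CPM in the inputs and 708, 555, 629 and 653 in the IP. Inputs agreed closely and every IP library was above them, by 0.39 on the log2 scale (standard error 0.04, edgeR adjusted p = 2.68e-24, and 1.95e-06 by the adjusted-deviance fit), or 1.31-fold. With TMM factors it was 0.57, still below the 1.5-fold threshold. The others that were higher at the adjusted p were Dhx38 (0.23), which acts before the second step of splicing, Dhx37 (0.21) and Ddx31 (0.16), and these 4 were also higher with TMM factors. Of the 13 genes depleted in fRIP, 11 were lower in UV-RIP at the adjusted p, against 53.9% of the well-counted protein-coding genes, and the other two were Ddx3x and Ddx28. This count was 7 with TMM factors and 6 with DESeq2 median-of-ratios, and 10 by the adjusted-deviance fit.

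The difference between crosslinkers was tested directly, as fRIP minus UV-RIP log2 fold change over all 16 libraries. Of the 53 helicase genes, 18 had a lower ratio in fRIP at an adjusted p below 0.05 (8.07% of all genes tested) and 4 a higher ratio (18.6% of all genes tested). The median difference was -0.13 for the helicase genes and 0.15 for all genes tested. Among the well-counted protein-coding genes 16.4% were lower and 33.2% higher. The counts depend on scaling and on the block. With TMM factors, with library sizes without Gm26917 and Gm42418, and with DESeq2 median-of-ratios, 26, 26 and 27 helicase genes were lower and 2 were higher, and without the plate as a block 8 were lower and 2 were higher.

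**Figure D2:**
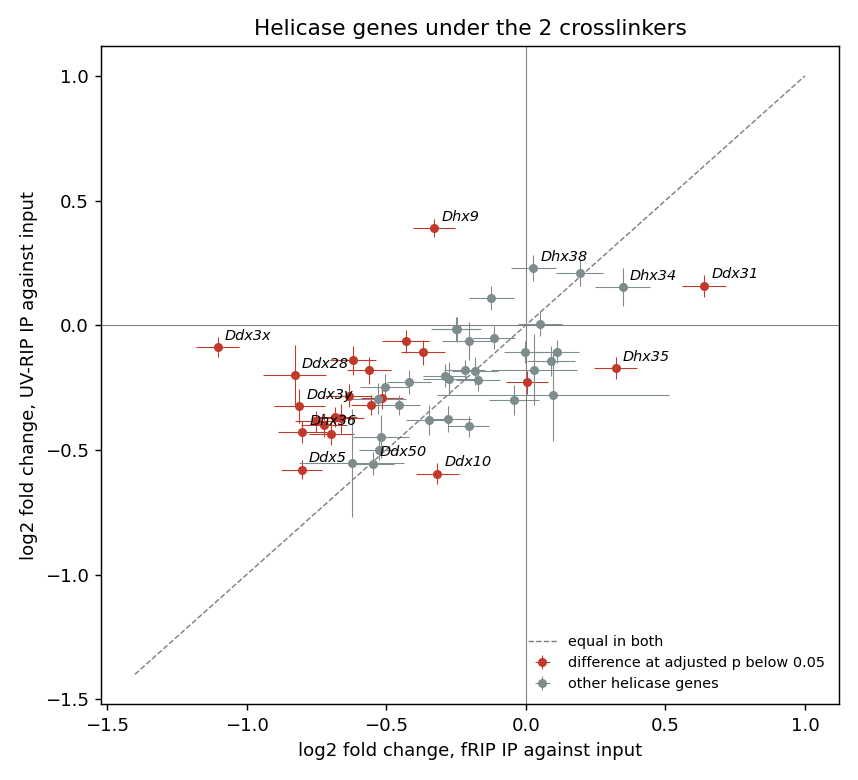
Log2 fold change of IP over input in fRIP (horizontal axis) against UV-RIP (vertical axis) for the 53 helicase genes, with standard errors as bars and the line of equal values dashed. Red points are the 22 genes whose difference passed the test; Ddx3x lies far to the left at -1.10 and -0.09, and Dhx9 lies in the upper left at -0.33 and 0.39.

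Ddx3x differed most, by -1.02 (standard error 0.08, edgeR adjusted p = 1.17e-08). In UV-RIP it had 270, 249, 243 and 256 CPM in the inputs and 246, 226, 236 and 252 in the IP, overlapping ranges with a log2 fold change of -0.09 (adjusted p = 0.069) that turned to 0.09 with TMM factors (adjusted p = 0.0241). As shares of all UMIs, the IP levels were alike under the crosslinkers, 223 ± 12.6 CPM in fRIP and 240 ± 11.5 in UV-RIP (SD, n = 4 each). Their ratio of fRIP to UV-RIP was 0.931. The inputs were not alike, at 484 ± 83.5 and 255 ± 11.5 CPM, a ratio of 1.90. Over all helicase genes the input ratio of fRIP to UV-RIP had a median of 1.26 and the IP ratio one of 1.21, and the fRIP input lay above the UV-RIP input in every library in 36 genes (19% of all genes tested) and below in 3 (17.5% of all genes tested). Against the medians of the helicase genes, Ddx3x was high in the input ratio and low in the IP ratio. Input and IP levels are both shares of all UMIs and move with Gm26917. That gene took 18.35 to 22.34% of the UV-RIP IP and 5.44 to 12.43% of the fRIP IP, and its part in these ratios was not tested. For Ddx6 the input ratio was 1.70 and the difference -0.36, and for Ddx28 they were 1.85 and -0.63. High input ratios also came with smaller differences, 1.83 and -0.23 for Ddx21 and 1.67 and -0.24 for Ddx39. That of Ddx39 did not pass (edgeR adjusted p = 0.106). Dhx9 had a lower input ratio of 1.31, an IP ratio of 0.794 and a difference of -0.72. Input values enter the difference itself, so these pairs cannot show where it arises, which was not tested. The difference of Ddx28 did not pass with the length trend removed (-0.42, adjusted p = 0.0638). Ddx3y had a difference of -0.49 (standard error 0.11, edgeR adjusted p = 1.34e-03).

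Dhx9 went in opposite directions, lower in the IP in all 4 fRIP pairs and higher in all 4 UV-RIP pairs, and its difference was -0.72 (standard error 0.09, edgeR adjusted p = 8.03e-07). It passed the test in all 15 settings run, between -0.867 and -0.679. Dhx35 showed the mirror with total UMIs, higher in the fRIP IP and lower in the UV-RIP IP, where it had 88.8, 90.6, 90.4 and 87.1 CPM in the inputs and 78.2, 78.7, 80.9 and 78.8 in the IP. Its UV-RIP value of -0.17 became 0.01 with TMM factors, while the difference of 0.49 (standard error 0.08, edgeR adjusted p = 4.35e-05) passed the test in all 15 settings run. The ratio of Ddx31 was higher in fRIP by 0.48, also in all 15 settings. The differences of Ddx10 (0.28) and Ddx11 (0.23) passed in 8 and 6 of the 15 settings, and that of Ddx10 was 0.16 with TMM factors and -0.04 with a trend on gene length removed. On the lower side Dhx16 passed in 8, Ddx20 in 9, Ddx5 in 10, Ddx24 and Dhx40 in 11 and Ddx21 in 12 of the 15, and the other 12 in at least 14.

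**Figure D3:**
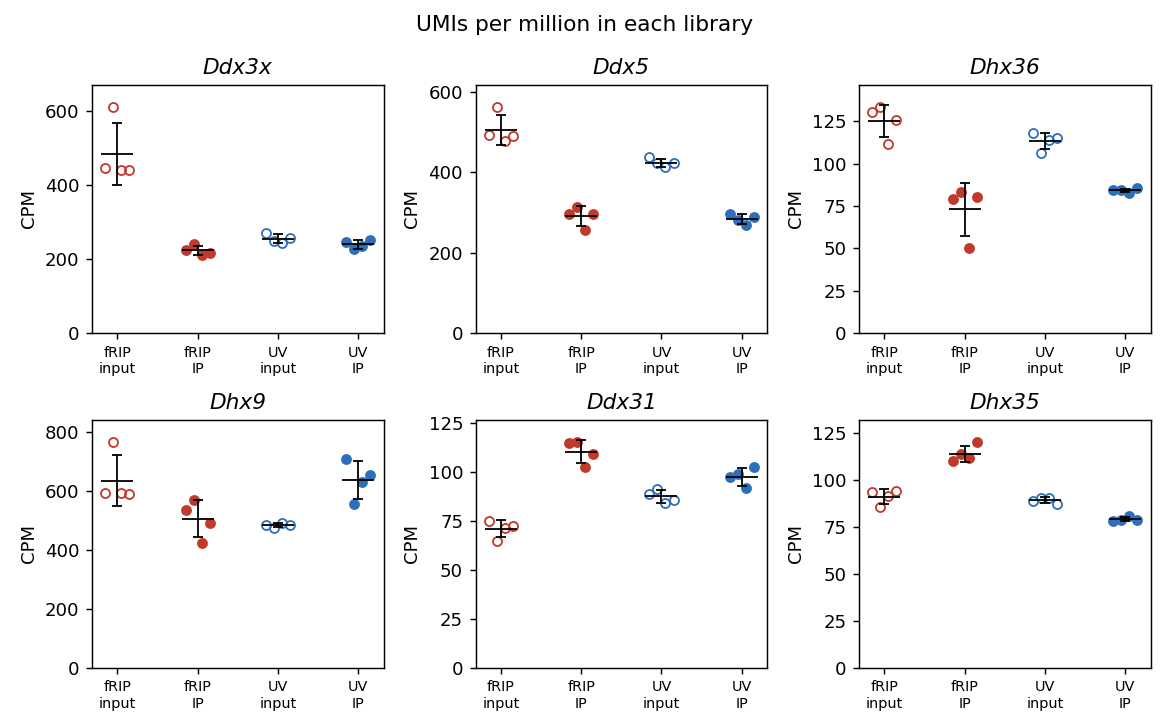
Level in CPM of UMIs in each library for 6 helicase genes, with open points for input, filled points for IP, red for fRIP and blue for UV-RIP; bars are mean and SD of 4 libraries. Ddx3x was at 439 to 609 CPM in the fRIP inputs and 243 to 270 in the UV-RIP inputs with similar IP levels, and Dhx9 fell in the fRIP IP and rose in the UV-RIP IP.

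Within the family, ratios followed the GC content of the transcript. The Spearman correlation across the 53 genes between the log2 fold change and the GC content of the longest transcript was 0.52 in fRIP and 0.58 in UV-RIP, against 0.32 and 0.57 across the 9792 well-counted protein-coding genes. Genes are not independent replicates and share libraries, so these are descriptions. Of the 13 genes depleted in fRIP, 12 had a transcript GC below 48%, against 24 of all 53, and the exception was Ddx28 at 55.6%. The 48% limit lies just above the highest of the 12, Ddx47 at 47.3%, so this count depends on it. Without a limit, the median GC was 43.4% for the 13 and 49.1% for all 53, which include them. The median GC was 47.3% for Ddx and 50.4% for Dhx genes. After removal of a trend on transcript GC over all genes, 5 of the 13 were still depleted in fRIP (Ddx3x at -0.88, Ddx5, Ddx6, Ddx20 and Ddx28), and Ddx49 and Dhx16 joined them. The median of the helicase genes moved only from -0.33 to -0.29, and the 8 genes that lost the call were then between -0.583 and -0.519, all below zero at the adjusted p. They were Ddx1, Ddx25, Ddx47, Ddx52, Dhx15, Dhx36, Dhx40 and Ddx3y, of which Ddx3y moved from -0.81 to -0.55 and Dhx36 from -0.80 to -0.56. In UV-RIP the same step turned the sign of 6 helicase genes, Ddx3x, Ddx3y, Ddx24, Ddx54, Dhx32 and Dhx34, with Ddx3x then at 0.12 (adjusted p = 0.00765) and Ddx3y at 0.01 (adjusted p = 0.946). Gene body length correlated weakly with the fRIP ratio of the helicase genes (0.21, against 0.59 for protein-coding genes) and with the UV-RIP ratio (-0.16, against 0.20). Ddx31, Dhx35 and Ddx10 were 65.2, 63.4 and 149 kb long, against a median of 22.8 kb. Fold changes in fRIP and UV-RIP correlated with each other at 0.59, and at 0.66 for protein-coding genes.

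**Figure D4:**
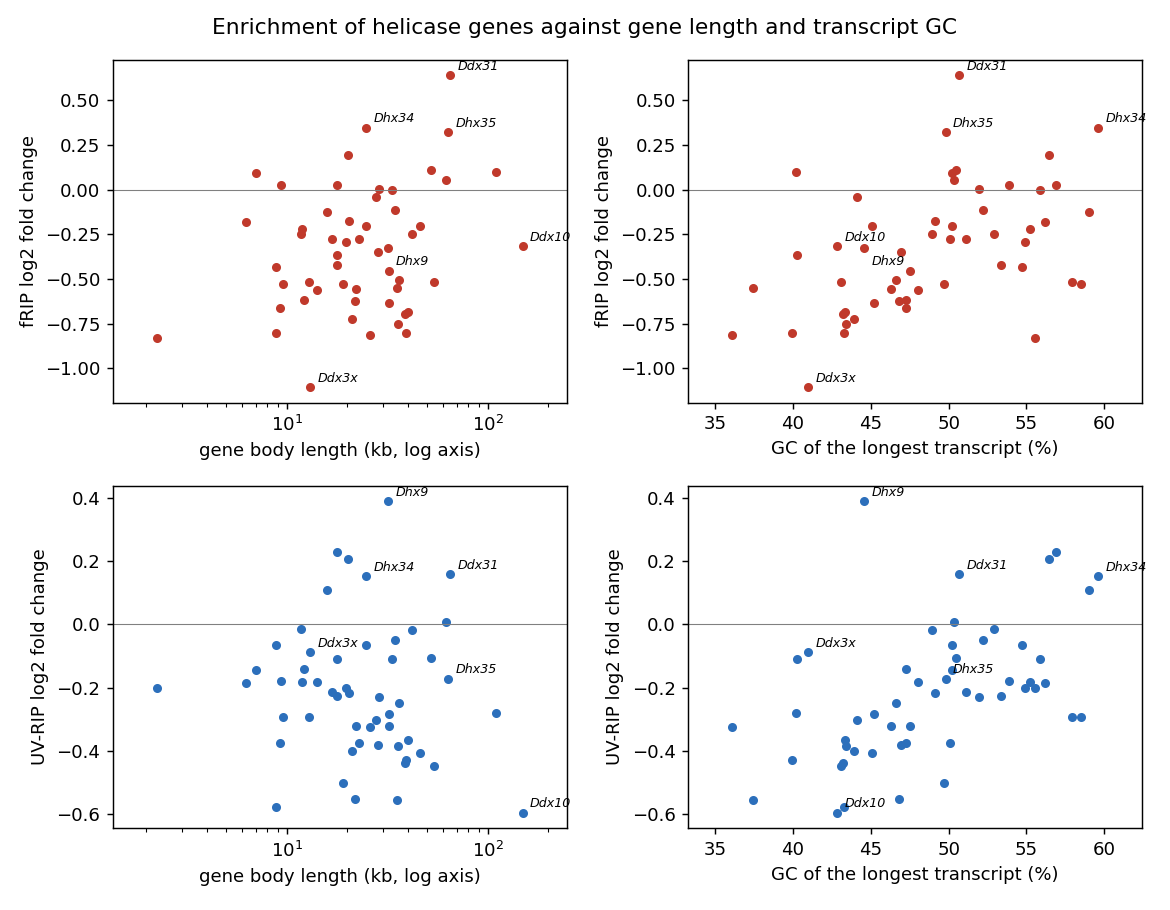
Log2 fold change of IP over input (vertical axis) against gene body length in kb (left, log axis) and GC content of the longest transcript in % (right) for the 53 helicase genes, with fRIP above and UV-RIP below. Values rise with GC in both rows (Spearman 0.52 and 0.58), and Ddx3x at 41.0% GC is the lowest point in fRIP.

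Some helicase genes share sequence with other genes, and reads that did not map uniquely had been discarded. In 9 of 53 genes more than 10% of the 34-base words of the transcripts were found in another gene. Ddx18 shared 63.9%, mostly with Gm16433, Ddx19a 31.4% with its neighbour Ddx19b, and Ddx5 19.8% mostly with Gm12183. Ddx49 shared 26.9%, mostly with Homer3, which overlaps it on the opposite strand. The main partners of Ddx39, Ddx41, Ddx43 and Ddx54 likewise overlap them on the opposite strand. Words shared because 2 genes cover the same genomic place do not stop a read from mapping uniquely. Values of Ddx18, Ddx19a, Ddx19b and Ddx5 are uncertain to the extent of their shared words, and introns were not assessed. A further limit is overlap: 22 genes overlap another annotated gene, 14 of them one on the opposite strand, and the strand setting of the counting is not given in the sources used here.

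Genes that work with these helicases were listed by function, and their members moved in both directions. Of 23 other RNA helicases tested, 1 was enriched and 1 depleted in fRIP and none was called in UV-RIP, where 4 were higher and 12 lower (52.2%) at the adjusted p. For comparison, 8.8% of all genes tested were enriched and 10.7% depleted in fRIP, and 0.68% were enriched and 5.53% depleted in UV-RIP, where 53.9% of the well-counted protein-coding genes were lower at the adjusted p. The depleted gene was Eif4a1, the DEAD box helicase of translation initiation, at -0.82 in fRIP and -0.18 in UV-RIP, and the enriched gene was the germ line helicase Tdrd9 at 0.63, from a mean of 38.8 UMIs. The highest value was that of the sensor Ifih1, 2.96 from a mean of 3.06 UMIs, which did not pass (edgeR adjusted p = 0.0567). Of 17 G-patch proteins, which activate DEAH box helicases, 1 was enriched and 1 depleted in fRIP, the cap methyltransferase Cmtr1 at 0.90 and Nkrf at -0.73, and none was enriched and 1 depleted in UV-RIP, Gpatch4 at -0.65. Of 19 MIF4G proteins and other cofactors of DEAD box helicases, 2 were enriched and 5 depleted in fRIP and none enriched and 2 depleted in UV-RIP. Ctif, of cap-binding-complex translation, was highest at 1.24 in fRIP and 0.54 in UV-RIP, and the exon junction gene Magoh was lowest in fRIP at -1.31. Magohb and Rbm8a, of the same complex, were depleted under both crosslinkers, at -0.86 and -1.09 in fRIP and -0.70 and -0.65 in UV-RIP. Magohb had a mean of 55.9 UMIs. UV-RIP values shift with the scaling described above, and the calls of these lists under other scalings are not given here.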

How the data were processed

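Libraries were made from rRNA-depleted RNA of Sox2 IP and input with UMI adaptors. Per the labels and the methods, the authors mapped reads with STAR to mm10, kept uniquely mapping reads and deposited, for GENCODE vM16 genes, raw UMI counts over the whole gene body. Tool versions are not given in the sources used here. The gene length column was used as the gene span.

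For each crosslinker, IP and input were compared in R 4.3.3 by the quasi-likelihood test of edgeR 4.0.16. Replicate numbers entered as a block and total UMIs as library size, and 22936 genes were tested that reached 3 UMIs in any 1 of the 16 libraries. P-values were adjusted by Benjamini-Hochberg over all genes tested. The crosslinker difference was an interaction term with the plate as a block. A standard error is that of the fitted log2 fold change, and CPM are UMI counts scaled by the total of each library in the usual way. The design text calls the 4 replicates of each crosslinker biological. IP and input of 1 number share a lysate, and their deviations from group means correlated at 0.11 to 0.60 in fRIP and 0.03 to 0.44 in UV-RIP.

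Members, role groups, pathway lists and markers were chosen with earlier results of these data known. Genes were named if called in either crosslinker or by the interaction, if they had the most UMIs of their role, the 3 highest or lowest fold changes, or, in pathway lists, were called in both crosslinkers or extreme. Other genes were named after their values were seen. Coordinates and transcripts are from GENCODE vM21, matched by identifier and version for 49 of 53 genes, which excludes Ddx17, Ddx23, Ddx46 and Dhx57, whose transcripts were matched by identifier alone. The tests were tested on simulated data, where 100% of 200 genes changed 2-fold were recovered among 21381 genes in fRIP and among 20732 in UV-RIP, and 99% for the difference among 22936. Unchanged genes called were 5, 0 and 14. The changed genes were drawn only from those above a floor on mean input UMIs, and no replicate effect was simulated. Recovery of changes near 1.5-fold or at low counts was therefore not measured. Alternatives included TMM, DESeq2 1.42.0, other filters, each replicate left out, length and GC trends, and other thresholds. The adjusted-deviance fit and the transcript GC trend were added after seeing the data.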

Additional observations from a re-analysis of the deposited data

Results flagged for a closer look

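Among 106 groups of 4 log2 ratios (53 genes under each crosslinker), 8 held a replicate far from the other 3 by Dixon's test, where chance gives about 1 in 20. In fRIP these were Ddx17 in replicate 6 (-0.42, others -0.57 to -0.55), Ddx21 in replicate 4 (-0.63, others -0.53 to -0.52), Dhx15 in replicate 5 (-0.89, others -0.63 to -0.59) and Dhx36 in replicate 5 (-1.16, others -0.72 to -0.65). In UV-RIP they were Ddx25 in replicate 4 (-1.24, others -0.45 to -0.38), Ddx31 in replicate 6 (0.26, others 0.12 to 0.13), Ddx55 in replicate 3 (-0.05, others -0.28 to -0.26) and Dhx37 in replicate 5 (0.08, others 0.24 to 0.27).

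For 22 genes the fold change differed between the crosslinkers by edgeR's interaction test at an adjusted p below 0.05. The fRIP minus UV-RIP values were lowest for Ddx3x (-1.02), Dhx9 (-0.72), Ddx28 (-0.63), Ddx3y (-0.49) and Ddx47 (-0.48). They were -0.38 for Ddx18, -0.37 for Dhx36 and Ddx56, -0.36 for Ddx6, -0.35 for Ddx1, -0.32 for Ddx52, -0.31 for Dhx15 and -0.29 for Ddx20. Smaller differences were found for Ddx24 and Dhx40 (-0.26 each), Ddx21 (-0.23), and Ddx5 and Dhx16 (-0.22 each). Higher in fRIP were Dhx35 (0.49), Ddx31 (0.48), Ddx10 (0.28) and Ddx11 (0.23). Plate and crosslinker cannot be told apart here.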

How the results depend on the processing

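The 13 depleted helicase genes in fRIP became 7 with a transcript GC trend removed (5 of the 13 kept, median log2 fold change -0.291 against -0.329), 15 with a length trend removed (10 of the 13 kept), 35 with no fold threshold, 4 with the fold of 1.5 itself tested and 11 to 14 with 1 replicate left out. The 1 enriched in fRIP became 0 with a length trend removed or the fold tested, 3 with no fold threshold, and 0 to 1 with 1 replicate left out. In UV-RIP the 1 depleted became 0 with TMM, library sizes without Gm26917 and Gm42418, DESeq2 median-of-ratios, the GC trend or the fold tested, and 0 to 3 with 1 replicate left out, and with no fold threshold 4 were enriched and 34 depleted. The median log2 fold change of helicase genes in UV-RIP was -0.22 and became -0.037 with TMM, -0.064 without Gm26917 and Gm42418 and -0.045 with DESeq2 median-of-ratios, and in fRIP it became -0.395 with the length trend removed. These 3 scalings also turned the sign of 11 to 13 uncalled helicase genes in UV-RIP, and the transcript GC trend that of 6, among them Ddx3x and Ddx3y. Genes with a higher ratio in fRIP than in UV-RIP went from 4 to 2 with these 3 scalings and to 2 to 5 with 1 replicate left out. Those with a lower ratio went from 18 to 26, 26 and 27 with the scalings and to 11 to 22 with 1 replicate left out. Without the replicate block, 2 were higher and 8 lower, and the block changed no call of a helicase gene within a crosslinker. The difference of Ddx10 reversed to -0.042 with the length trend removed. The causes were not tested.

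Over all genes, UV-RIP calls went from 156 enriched and 1268 depleted to 505 and 425 with TMM, 419 and 505 without Gm26917 and Gm42418, 289 and 233 with DESeq2 median-of-ratios, and 76 and 871 with DESeq2 and total UMIs. The GC trend left 100 enriched in UV-RIP. Testing the fold gave 728 enriched and 1007 depleted in fRIP and 17 and 200 in UV-RIP, and no fold threshold gave 4036 and 5018 in fRIP and 1514 and 6640 in UV-RIP. The gene body GC trend was not run, since no genome was used here. Depth limits Ddx60, Ddx25 and Dhx58 most.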
